A study of Mus musculus with 8 samples.

Results

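The genes described are those of the mitochondrial respiratory chain and ATP synthase that are encoded in the nucleus. They were taken by symbol from a gene expression table of mouse CD4+ T cells: the Nduf a, b, c, s and v series, Sdha to Sdhd, Cyc1 and every symbol beginning with Uqcr, Cox4 to Cox8 or Atp5, without names marked as pseudogenes. Of the 34745 genes of the table, 85 matched, and 4 pseudogene rows were left out. By complex, 35 belong to complex I, 4 to complex II, 9 to complex III, 20 to complex IV and 15 to complex V. The 20 of complex IV include Ndufa4, which kept its complex I name although the protein is a subunit of cytochrome c oxidase, and its relative Ndufa4l2. The other 2, Atp5s and Atp5sl, carry ATP synthase names but are listed apart, since Atp5s encodes factor B (Dmac2l) and Atp5sl encodes Dmac2, an assembly protein of complex I.

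All cells came from the spleen of wild-type C57BL/6 mice, with 2 RNA-seq libraries in each of 4 groups. Th17 libraries are replicates 2 and 3 of cells kept 3 days in conditions for Th17 cells, helper cells that make IL-17. Treg libraries are replicates 2 and 3 of cells kept 3 days in conditions for regulatory T cells, which depend on Foxp3. Th0 libraries are replicates 1 and 3 of cells cultured for 3 days with antibodies to CD3 and CD28, and naive libraries are replicates 1 and 2 of CD4+ cells taken straight from the spleen. Whether the 2 libraries of each group had different mice or cultures as their source is not stated in the labels. The p-values therefore measure library-to-library spread, which could be purely technical. The cytokines of the 2 differentiation cultures are not given in the sources used here.

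The respiratory chain passes electrons from NADH through complex I, and from succinate through complex II, to coenzyme Q, then through complex III, cytochrome c and complex IV to oxygen. Complexes I, III and IV pump protons across the inner mitochondrial membrane, and complex V, the ATP synthase, uses the returning protons to make ATP. Complex II is built from nuclear genes alone, and the others also contain subunits encoded by mitochondrial DNA. T cells are known to enlarge their mitochondria and raise respiration after activation, alongside a rise in glycolysis, and regulatory T cells are known to rely more on respiration than Th17 cells do.

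Total counts ran from 12504463 to 22443368 per library. Levels are given as CPM, the count relative to the library size after scaling with TMM factors, and a gene was called at an adjusted p under 0.05 (edgeR quasi-likelihood test, Benjamini-Hochberg over 14690 genes). The naive libraries held more RNA of myeloid and B cell genes than the cultured ones. The summed level of 11 myeloid and dendritic genes was 116 and 124 CPM in Th17, 109 and 88.5 CPM in Treg, 50.2 and 40.5 CPM in Th0, and 3992 and 3713 CPM in naive libraries. For 8 B cell genes the sums were 552 and 594 CPM in Th17, 149 and 156 CPM in Treg, 210 and 219 CPM in Th0, and 1527 and 1216 CPM in naive libraries. In Th17 and Treg libraries Siglech, a marker of plasmacytoid dendritic cells, had no count, and it reached 22.98 and 24.41 CPM in naive libraries. Flt3 of the same list, named after its values were seen, was not absent. It had 56.4 and 54.0 CPM in Th17, 15.9 and 9.12 CPM in Treg, 2.11 and 1.69 CPM in Th0, and 84.3 and 87.6 CPM in naive libraries.

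Genes known to mark the cultured states were measured too. Foxp3 had 9.93 and 5.91 CPM in Th17, 317 and 269.7 CPM in Treg, 5.94 and 4.70 CPM in Th0, and 95.0 and 101 CPM in naive libraries. Il17a had 60.9 and 33.7 CPM in Th17 and 57.4 and 34.3 CPM in Treg libraries, which overlap.

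In 2 groups the libraries stood apart for the respiratory chain genes. The median difference of Th0 replicate 3 from Th0 replicate 1 over the 81 tested members was -0.21 on the log2 scale, against 0 over all tested genes. It reached -0.59 over the 20 members with under 1000 bases of annotated exons, against -0.21 over all 994 tested genes that short. Over the 61 longer members it was -0.15. Th17 replicate 3 had a median difference of -0.21 from Th17 replicate 2 over the members, with 64 of 81 lower. The same differences were 0.05 in Treg and in naive libraries. Results that rest on the Th0 or Th17 libraries are given below with and without them.

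Together the 85 genes made up 0.690% and 0.610% of all counts in Th17 libraries, 0.768% and 0.791% in Treg, 0.704% and 0.649% in Th0, and 0.517% and 0.527% in naive libraries. Their summed level was 6441 ± 397 CPM in Th17, 7503 ± 108 CPM in Treg, 7286 ± 426 CPM in Th0 and 5081 ± 61.7 CPM in naive libraries (SD, n = 2 each). Both naive libraries were the lowest for all 5 complexes. Complex V took the highest share of the sum in every group, with 2259 ± 109 CPM in Th17, 2804 ± 20.1 CPM in Treg, 2578 ± 104 CPM in Th0 and 1834 ± 1.1 CPM in naive libraries. In bulk RNA, a change in the number of cells of a type and a change in RNA per cell cannot be told apart.

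**Figure D1:**
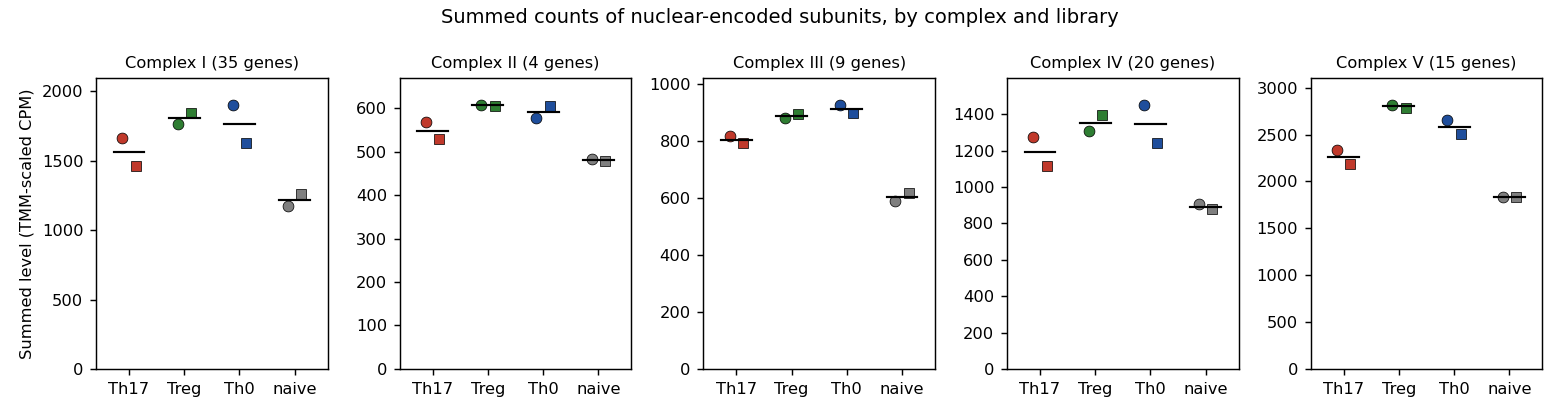
Summed level of the member genes of each complex, in TMM-scaled CPM on axes that start at 0, for Th17, Treg, Th0 and naive libraries. Circles are the library with the lower replicate number, squares the other, and lines the mean of both; the naive libraries lie lowest in all 5 complexes, and complex V averages 1834 CPM there, against 2804 CPM in Treg.

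Activation was examined as Th0 against naive. The respiratory chain genes rose broadly: 43 of the 81 tested members were higher in Th0 (53.1%) and 1 was lower. Over all genes 31.3% were called higher and 36.4% lower, 67.7% in either direction. The median log2 fold change was 0.47 over the members, against -0.08 over all genes. Every complex took part, with 21 of 35 tested members higher in complex I, 2 of 4 in complex II, 4 of 9 in complex III, 7 of 16 in complex IV and 7 of 15 in complex V, and both genes listed apart were higher. The medians by complex were 0.49, 0.31, 0.14, 0.37 and 0.46 in the same order.

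In complex I the subunits moved unequally. Ndufv2, an iron-sulfur subunit of the NADH-oxidising arm that was picked after its values were seen, had 89.3 and 88.1 CPM in Th0 libraries, against 44.4 and 48.5 CPM in naive libraries (log2 fold change 0.93, SE 0.12, adjusted p 0.000121). Ndufa6, an accessory subunit, had 139 and 97.3 CPM in Th0 and 46.2 and 56.6 CPM in naive libraries, a 2.30-fold rise (adjusted p 0.000189). By contrast Ndufs1, the largest iron-sulfur subunit, had 110 and 111 CPM in Th0 and 95.2 and 109 CPM in naive libraries, with an adjusted p of 0.34. Ndufv1, which binds NADH and FMN, had 53.4 and 45.1 CPM in Th0 and 38.8 and 40.4 CPM in naive libraries, both Th0 libraries above both naive ones but not called (log2 fold change 0.31, adjusted p 0.0593).

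Complex II is succinate dehydrogenase, which also works in the tricarboxylic acid cycle. Its iron-sulfur subunit Sdhb and its membrane anchor Sdhd rose, while the flavoprotein Sdha and the anchor Sdhc had log2 fold changes of 0.16 and 0.20 that were not called. Sdhd had 103 and 116 CPM in Th0, against 66.1 and 62.8 CPM in naive libraries (log2 fold change 0.77, SE 0.09, adjusted p 7.42e-05). Sdhb had 90.52 and 90.55 CPM in Th0, against 68.4 and 66.8 CPM in naive libraries (log2 fold change 0.42, adjusted p 0.00234). For all 4 subunits both Th0 libraries were above both naive libraries, as they were for 53 of the 81 tested members. The share of all genes with such a separation was not counted.

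In complex III, Uqcrc2, a core subunit, had 289 and 317 CPM in Th0 and 147 and 143 CPM in naive libraries, a 2.09-fold rise (adjusted p 4.48e-06). The other core subunit, Uqcrc1, had 110 and 138 CPM in Th0 and 129.99 and 129.67 CPM in naive libraries, with a log2 fold change of -0.06 (adjusted p 0.641). The Rieske iron-sulfur protein Uqcrfs1 rose, with 122 and 133 CPM in Th0 and 76.2 and 77.7 CPM in naive libraries (log2 fold change 0.73, adjusted p 9.13e-05). Cytochrome c1, the product of Cyc1, had 64.9 and 67.1 CPM in Th0 and 55.5 and 64.6 CPM in naive libraries and was not called (adjusted p 0.346). The Th0 and naive libraries did not overlap for Uqcrc2, which was picked after its values were seen, and overlapped for Uqcrc1.

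In complex V the catalytic beta subunit rose and the alpha subunit was not called. Atp5b, the beta subunit, had 879.8 and 883 CPM in Th0 and 555 and 559.9 CPM in naive libraries (log2 fold change 0.66, SE 0.08, adjusted p 5e-05). Atp5a1, the alpha subunit, had 490.1 and 516 CPM in Th0 and 491 and 483 CPM in naive libraries, with a log2 fold change of 0.05 (adjusted p 0.616). Of the 3 genes that encode the same mature c subunit of the membrane ring, Atp5g2 rose (log2 fold change 1.19, adjusted p 0.0132), while Atp5g1 and Atp5g3 had log2 fold changes of 0.04 and 0.30 that were not called. Atp5g2 was scarce, at 2.64 and 3.85 CPM in Th0 and 1.35 and 1.47 CPM in naive libraries.

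Among members at 10 CPM or more, the greatest change was in complex IV. Cox6b2, the isoform of subunit 6b known mainly from testis, had 62.1 and 45.4 CPM in Th0 libraries, against 0.82 and 1.34 CPM in naive libraries. That is a log2 fold change of 5.61 (SE 0.41, adjusted p 2.59e-06), or 48.9-fold. Both Th0 libraries stood far above both naive libraries, and the general isoform Cox6b1 rose 1.42-fold (adjusted p 0.00631). Among the common subunits, Cox8a had 182 and 155 CPM in Th0 and 70.3 and 64.98 CPM in naive libraries (log2 fold change 1.32, SE 0.11, adjusted p 6.77e-06), and Cox5a had 115 and 101 CPM in Th0 and 60.2 and 56.4 CPM in naive libraries (log2 fold change 0.89, adjusted p 0.000136). The core-contacting subunit Cox4i1 rose by a log2 fold change of 0.38 (adjusted p 0.0315), and the zinc-binding Cox5b, with a log2 fold change of 0.04, was not called. Cox4i2, the isoform known from lung, was the 1 member called lower: it had no count in either Th0 library and 41 counts over both naive libraries, at least 4.44-fold lower when Th0 is set at 3 counts per library.

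**Figure D2:**
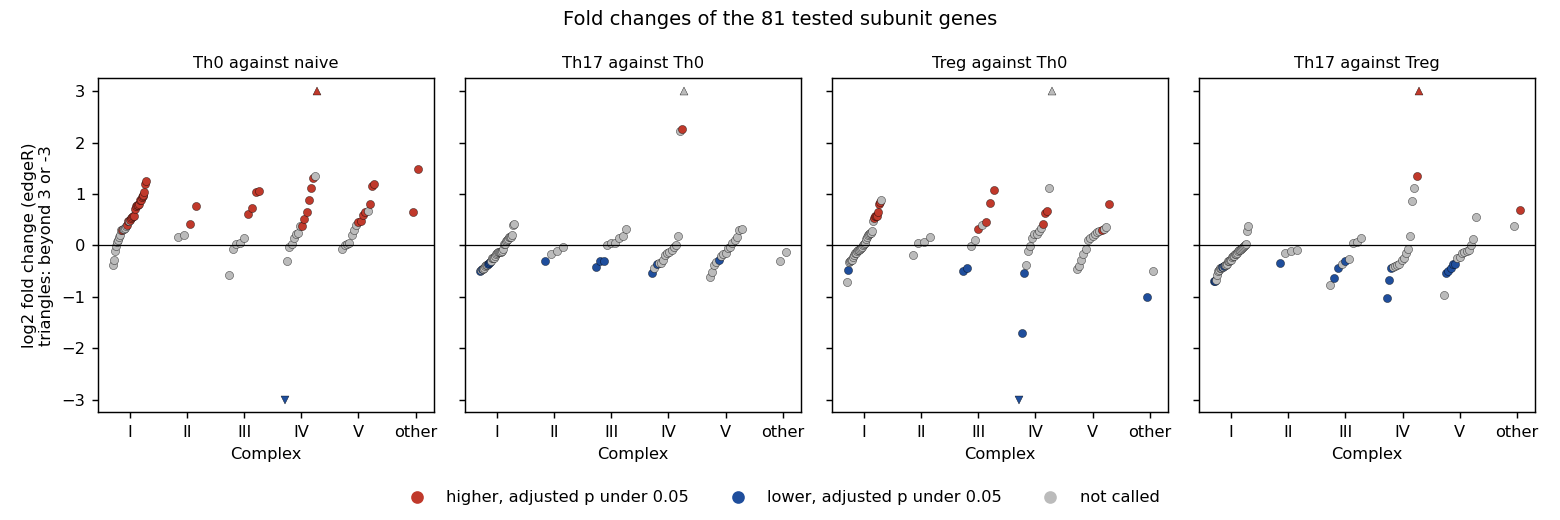
Each point is 1 of the 81 tested genes, ordered within its complex by log2 fold change (vertical axis), for the 4 comparisons; red points were called higher, blue points lower and grey points were not called, and triangles lie beyond the axis. In Th0 against naive 43 genes are red and 1 is blue, in Th17 against Th0 1 and 12, in Treg against Th0 16 and 7, and in Th17 against Treg 3 and 16.

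The promoters of Cox6b2 and Cox8a are shown because these are the members of complex IV that rose most on activation among those at 10 CPM or more. The sequences run from 250 bases before to 50 bases after the RefSeq start (build GRCm38.p6), on the gene's strand. Cox6b2 lies at chr7:4753045-4753344 on the minus strand and Cox8a at chr19:7217567-7217866 on the minus strand. Capitals mark exact matches, on either strand, to 1 of 4 strings known from promoters of respiratory genes: GCGCATGCG (core of the NRF1 site), CCGGAAGT (ETS family, which includes GABP), TGACGTCA (cAMP response element) and AAGATGGCG (YY1). Cox8a holds 2 matches to the ETS string and Cox6b2, printed for its change after its values were seen, holds none of the 4.
Cox6b2: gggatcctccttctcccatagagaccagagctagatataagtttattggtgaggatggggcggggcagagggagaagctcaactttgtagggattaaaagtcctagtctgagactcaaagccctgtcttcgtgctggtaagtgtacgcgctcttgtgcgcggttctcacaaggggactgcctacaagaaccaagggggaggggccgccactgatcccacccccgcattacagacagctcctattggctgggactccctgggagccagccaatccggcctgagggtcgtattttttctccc
Cox8a: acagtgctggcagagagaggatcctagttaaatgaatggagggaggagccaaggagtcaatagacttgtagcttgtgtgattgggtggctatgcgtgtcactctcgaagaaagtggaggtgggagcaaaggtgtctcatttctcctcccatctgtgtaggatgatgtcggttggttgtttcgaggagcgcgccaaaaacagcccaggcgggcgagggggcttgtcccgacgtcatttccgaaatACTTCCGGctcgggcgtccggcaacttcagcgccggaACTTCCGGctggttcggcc

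The promoter table matched 69 of the 85 members. At least 1 of the 4 strings was found for 23 of them (33.3%), against 2481 of all 27025 genes with a promoter in that table (9.18%). The NRF1 string was found for 8 members (11.6%), against 1.95% of all genes, and the YY1 string also for 8 members (11.6%), against 1.64%. For the ETS string the shares were 7.25% of members and 4.31% of all genes, and for the cAMP response element 5.8% and 2.03%. By complex, a match was found for 10 of 31 in complex I, 0 of 3 in complex II, 4 of 5 in complex III, 2 of 14 in complex IV and 6 of 14 in complex V. The median share of G and C bases was 57.3% in promoters of the members and 52.7% over all genes. The part of this difference in the shares of matches was not tested. A string match describes these 300 bases and is not evidence of binding.

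Of the 44 calls in Th0 against naive, 32 held under each of 20 other settings in which the gene was tested, Cox6b2, Cox8a, Ndufa6, Ndufv2, Sdhb, Sdhd, Uqcrc2, Uqcrfs1, Cox5a and Atp5b among them. Cox4i1 was called under 15 of 20, Atp5sl under 19 of 20 and Atp5g2 under 16 of the 19 in which it was tested. Without Th0 replicate 3 the counts were 44 higher and 1 lower, and without Th0 replicate 1 they were 37 and 5. The naive libraries had the highest sums of the myeloid and B cell genes given above, and 5 red blood cell genes summed to 0.79 and 0.54 CPM in Th0 and 300.4 and 229 CPM in naive libraries. Of 10 genes found in all T cells 6 were higher in Th0 and none lower, with a median log2 fold change of 0.61. The part of this shift in the values of the respiratory chain genes was not tested.

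Among the isoforms of the small complex IV subunits, Cox6b2 and Cox6a2 separated the groups. The isoform pairs differ in exon length, so levels of the partners are compared per base of annotated exons (GENCODE M21 on GRCm38). On that scale Cox6b2 made up 32.2% and 22.0% of the Cox6b1 and Cox6b2 total in Th17 libraries, 8.92% and 13.5% in Treg, 31.6% and 30.7% in Th0, and 0.958% and 1.61% in naive libraries. On the deposited FPKM scale the same shares were lower, at 11.8% and 7.37% in Th17, 2.68% and 4.19% in Treg, 11.5% and 11.1% in Th0, and 0.272% and 0.46% in naive libraries. The 2 scales differ because the length implied by the FPKM of Cox6b2 is 2807 bases, longer than its whole locus of 1303 bases (chr7:4751792-4753094, minus strand). The order of the groups was the same on both scales, with the naive libraries lowest and the Treg libraries below the Th17 and Th0 libraries.

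Cox6a2, the isoform of subunit 6a known from heart and skeletal muscle, followed another pattern. It had 17.2 and 25.8 CPM in Th17, 0.26 and 0.77 CPM in Treg, 6.47 and 2.31 CPM in Th0, and 3.18 and 3.69 CPM in naive libraries. Both Th17 libraries were above all others and both Treg libraries below all others, and the Th0 and naive ranges overlapped. Per base of annotated exons it made up 14.7% and 22.1% of the Cox6a1 and Cox6a2 total in Th17, 0.214% and 0.559% in Treg, 6.38% and 3.07% in Th0, and 4.17% and 4.42% in naive libraries. The Treg libraries held 4 and 10 counts of it. Cox6a2 (chr7:128205435-128206387, minus strand) overlaps Itgad, an integrin gene on the opposite strand, and without a stated strand their reads cannot be told apart. Itgad was at 0.70 and 0.15 CPM in Th17, 0.52 and 0.31 CPM in Treg, 0.13 and 0 CPM in Th0, and 298 and 256 CPM in naive libraries. Itgad was thus under 1 CPM in each cultured library, and its part in the Cox6a2 values was not tested.

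**Figure D3:**
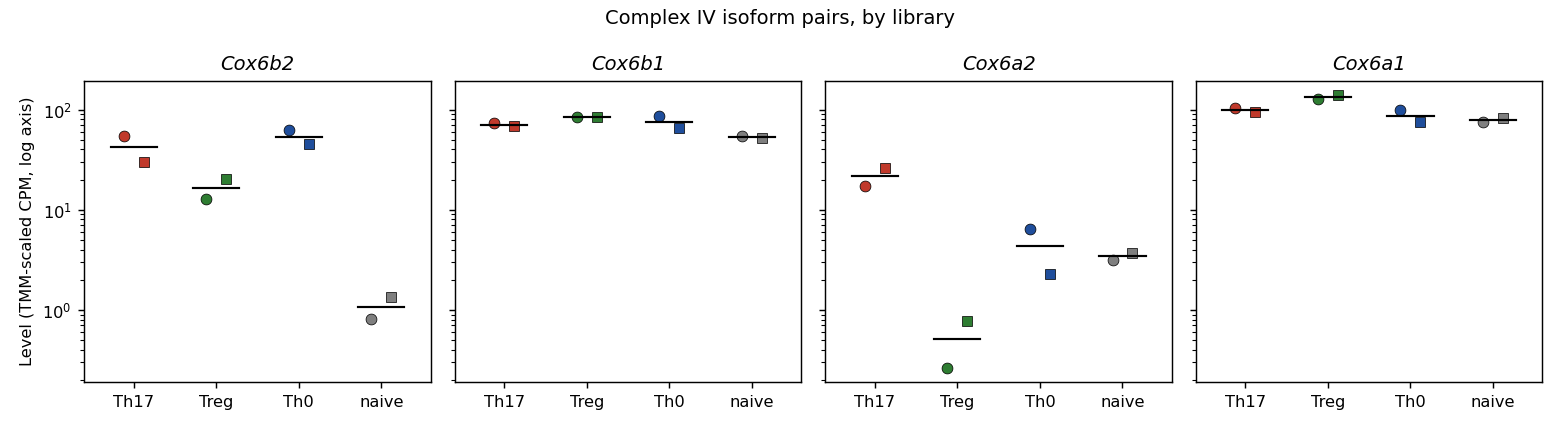
Level of Cox6b2, Cox6b1, Cox6a2 and Cox6a1 in TMM-scaled CPM (log axis) in Th17, Treg, Th0 and naive libraries; circles are the lower and squares the higher replicate number, and lines the mean. Cox6b2 lies near 1 CPM in naive libraries and at 12.8 CPM or more in all cultured ones, and Cox6a2 is highest in Th17 and under 1 CPM in Treg.

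Several other isoforms were low or absent. Cox7a1, the muscle isoform of subunit 7a, reached 0.999 and 1.36 CPM in Th17, 0.393 and 0.69 CPM in Treg, 0.462 and 0 CPM in Th0, and 0.096 and 0.087 CPM in naive libraries. Cox7b2, Cox8b and Cox8c had no count in any library, and Ndufa4l2 had 1 count in all. These 4 were the members that failed the filter on low counts. With 3 counts taken as the limit for a library without any count, levels under 0.13 to 0.231 CPM could have been missed, counting error alone considered. Per base of annotated exons the order of the members differed between groups. Cox8a averaged 239.8 CPM per kilobase in Th17, 251.4 in Treg and 272.6 in Th0, the highest level there, and 109.3 in naive libraries, where it was the fifth. Cox7a2l averaged 196.2 CPM per kilobase in Th17, 172.8 in Treg, 250.8 in Th0 and 160.5 in naive libraries, the highest in naive and the fifth in Treg.

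Treg conditions were set against Th0. In this comparison 16 of the 81 tested members were higher (19.8%) and 7 lower (8.64%), against 25.7% higher and 20.6% lower over all genes, 46.2% in either direction. The median log2 fold change was 0.13 over the members and 0.09 over all genes. By complex, 7 of 35 were higher and 1 lower in complex I, 4 of 9 higher and 2 lower in complex III, 3 of 16 higher and 3 lower in complex IV, and 2 of 15 higher and none lower in complex V. None of the 4 genes of complex II was called, with log2 fold changes of 0.06 for Sdha, 0.17 for Sdhb, 0.05 for Sdhc and -0.19 for Sdhd. Atp5sl was lower.

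The called members included accessory and core subunits. Uqcr11, the smallest subunit of complex III, had 16.4 and 14.5 CPM in Treg, against 9.97 and 4.54 CPM in Th0 (log2 fold change 1.08, SE 0.32, adjusted p 0.0214). Without Th0 replicate 3 it was 0.60 and not called (adjusted p 0.0983). Ndufs5 of complex I had 26.5 and 28.6 CPM in Treg and 16.4 and 14.2 CPM in Th0 (log2 fold change 0.85, SE 0.19, adjusted p 0.00582). Uqcrq, a small complex III subunit near cytochrome b, had 65.7 and 73.4 CPM in Treg and 45.95 and 32.4 CPM in Th0 (log2 fold change 0.82, SE 0.18, adjusted p 0.00468). In all 3 genes both Treg libraries were above both Th0 libraries, and Th0 replicate 3 was the lower Th0 library. The same held for Ndufa4, with 59.7 and 55.5 CPM in Treg and 41.9 and 30.3 CPM in Th0 (log2 fold change 0.67, adjusted p 0.0121), whose call was also lost without Th0 replicate 3 (adjusted p 0.101).

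Among the core subunits, Cyc1 had 89.7 and 90.3 CPM in Treg and 64.9 and 67.1 CPM in Th0 (log2 fold change 0.45, adjusted p 0.0147), and Atp5a1 had 631 and 612 CPM in Treg and 490.1 and 516 CPM in Th0 (log2 fold change 0.31, adjusted p 0.0107). Uqcrc1 and Cox5b also rose, by log2 fold changes of 0.32 and 0.42 (adjusted p 0.0482 and 0.0314). Neither call held throughout: Uqcrc1 was called under 9 of 20 other settings, with 0.12 (adjusted p 0.449) without Th0 replicate 1, and Cox5b under 14, with 0.23 (adjusted p 0.254) without Th0 replicate 3. Cyc1 was called under 14 and Atp5a1 under 16. Atp5b had 1009 and 944.8 CPM in Treg and 879.8 and 883 CPM in Th0, both Treg libraries above both Th0 libraries, but was not called (adjusted p 0.136). Cox6a1, the general isoform of subunit 6a, rose with 126 and 141 CPM in Treg and 98.0 and 75.3 CPM in Th0 (log2 fold change 0.62, adjusted p 0.00452), while Cox6a2 fell in Treg by 3.14 on the log2 scale (adjusted p 0.00305).

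The lower members in Treg included Cox6b2, with 12.8 and 20.5 CPM in Treg and 62.1 and 45.4 CPM in Th0 (log2 fold change -1.70, SE 0.31, adjusted p 0.00222). Atp5sl, the complex I assembly protein, had 40.9 and 39.9 CPM in Treg and 66.2 and 95.3 CPM in Th0 (log2 fold change -0.998, SE 0.17, adjusted p 0.00165). Cox7a2l, counted with complex IV, had 245 and 266 CPM in Treg and 370.0 and 371 CPM in Th0 (log2 fold change -0.54, SE 0.08, adjusted p 0.000701). In these 3 genes the Treg and Th0 libraries did not overlap. Uqcrc2 and Uqcrh of complex III fell by 0.44 and 0.50 on the log2 scale, in the opposite direction to Uqcr11, Uqcrq, Cyc1 and Uqcrc1 of the same complex.

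**Figure D4:**
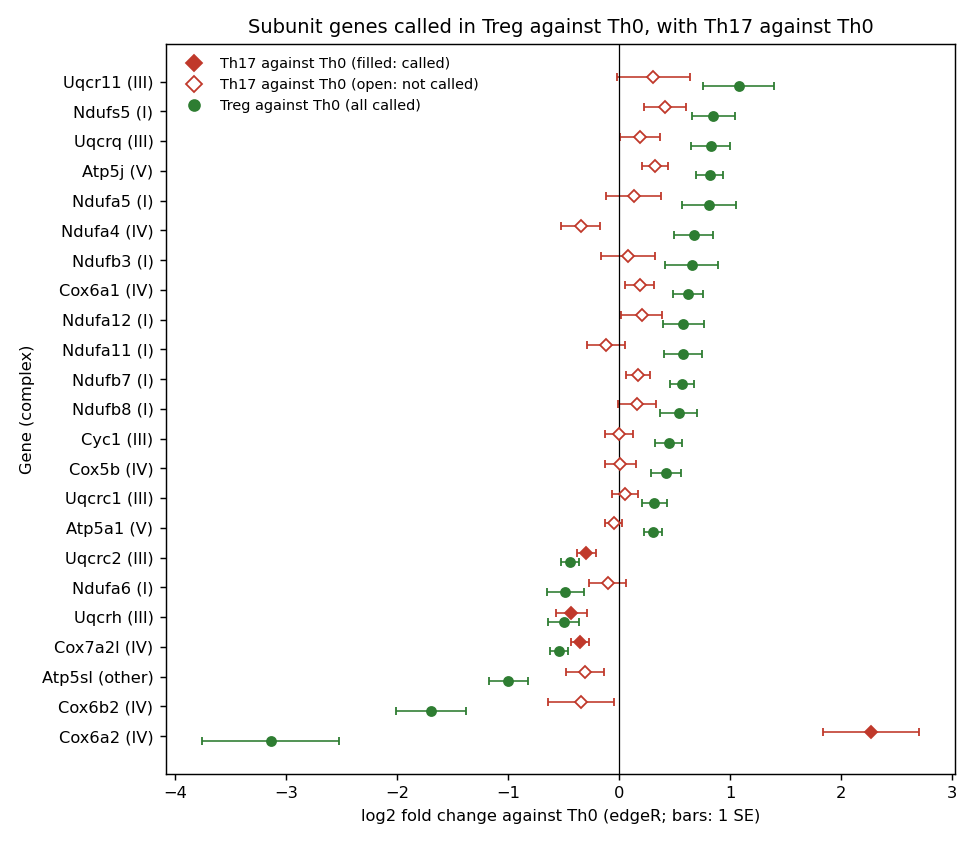
The 23 genes called in Treg against Th0 (green circles, log2 fold change with bars of 1 SE) beside their values in Th17 against Th0 (red diamonds, filled where called); both comparisons share the Th0 libraries. Cox6a2 lies at -3.14 in Treg and at 2.27 in Th17.

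Over all genes, fewer were called higher in Treg without any 1 library of either group. How many members were higher in Treg also depended on single libraries of both groups. Without Treg replicate 2 the counts were 5 higher and 6 lower, and without Treg replicate 3 they were 10 and 6. Without Th0 replicate 1 they were 17 and 5. Without Th0 replicate 3 the counts were 8 higher and 8 lower, and the median log2 fold change turned to -0.05. An adjustment of each library for its trend with gene length, chosen after the data were seen, gave 8 higher and 16 lower with a median of -0.03. Scaling to library totals, which moves the median of all genes by 0.16, gave 26 higher and 5 lower. Under each of 20 other settings 10 calls held: Ndufs5, Ndufb7, Uqcrq, Cox6a1 and Atp5j higher, and Cox6a2, Cox6b2, Cox7a2l, Uqcrc2 and Atp5sl lower. Of these, Ndufb7 (log2 fold change 0.56), Atp5j (0.81) and Uqcrc2 were named for this stability after their values were seen. Ndufb7 is an accessory subunit of complex I, and Atp5j is coupling factor 6 in the stalk of complex V. Of the 10 genes found in all T cells 1 was higher and 5 were lower in Treg (median log2 fold change -0.30), and of the 11 myeloid and dendritic genes 8 were higher and 1 lower, at the sums given above. Both CD8 genes were higher, with sums of 426 and 469 CPM in Treg and 176.3 and 175.5 CPM in Th0, as were 2 of 4 NK cell genes, and 4 of the 8 B cell genes were lower. The part of these in the values was not tested.

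The promoters of Uqcr11 and Ndufa11 are shown because these were the matched members that held more than 1 kind of string. Ndufa11, an accessory complex I subunit of the membrane arm, had 44.0 and 36.9 CPM in Treg and 30.6 and 23.6 CPM in Th0 (log2 fold change 0.58, adjusted p 0.0192). Uqcr11 lies at chr10:80406772-80407071 on the minus strand and Ndufa11 at chr17:56717512-56717811 on the plus strand, both from RefSeq on GRCm38.p6, and capitals mark matches as before. Uqcr11 holds the ETS and NRF1 strings. Ndufa11 holds the cAMP response element and the NRF1 string, whose matches on the 2 strands overlap.
Uqcr11: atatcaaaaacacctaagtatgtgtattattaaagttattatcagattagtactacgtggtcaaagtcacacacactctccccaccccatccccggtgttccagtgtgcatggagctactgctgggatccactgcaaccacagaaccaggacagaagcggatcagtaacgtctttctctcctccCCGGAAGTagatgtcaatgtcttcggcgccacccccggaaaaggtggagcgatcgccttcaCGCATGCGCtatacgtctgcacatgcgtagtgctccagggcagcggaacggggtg
Ndufa11: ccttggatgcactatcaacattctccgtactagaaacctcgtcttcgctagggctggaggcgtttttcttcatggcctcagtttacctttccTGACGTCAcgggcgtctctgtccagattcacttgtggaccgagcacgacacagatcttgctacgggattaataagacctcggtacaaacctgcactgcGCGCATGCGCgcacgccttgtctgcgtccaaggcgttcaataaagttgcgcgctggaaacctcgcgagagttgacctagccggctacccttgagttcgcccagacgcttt

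Th17 conditions were likewise set against Th0. Here 1 of the 81 tested members was higher (1.23%) and 12 were lower (14.8%), against 16.1% higher and 12.6% lower over all genes, 28.7% in either direction. The median log2 fold change was -0.14 over the members and 0.05 over all genes. The lower members were 5 of complex I, 1 of complex II, 3 of complex III, 2 of complex IV and 1 of complex V, and each fell by less than 2-fold.

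The gene higher in Th17 was Cox6a2, with 17.2 and 25.8 CPM in Th17 and 6.47 and 2.31 CPM in Th0 (log2 fold change 2.27, SE 0.43, adjusted p 0.00487). It was called under each of 20 other settings, with log2 fold changes of 1.42 to 3.19. Cox7a1, the muscle isoform of subunit 7a, also lay higher in both Th17 libraries, but at 1.36 CPM or less it was not called (adjusted p 0.0855). Cox6b2 had 54.3 and 30.2 CPM in Th17 and 62.1 and 45.4 CPM in Th0, and these ranges overlapped (log2 fold change -0.34, adjusted p 0.42).

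Of the members lower in Th17, Cox7c, a small complex IV subunit, had 11.2 and 9.62 CPM in Th17 and 15.3 and 14.9 CPM in Th0 (log2 fold change -0.53, SE 0.16, adjusted p 0.0374). Ndufa9, a complex I subunit close to the coenzyme Q site, had 78.7 and 66.7 CPM in Th17 and 107 and 97.8 CPM in Th0 (log2 fold change -0.49, SE 0.11, adjusted p 0.0103). Ndufv1 had 39.4 and 31.96 CPM in Th17 and 53.4 and 45.1 CPM in Th0 (log2 fold change -0.46, SE 0.13, adjusted p 0.03). In these genes both Th17 libraries were below both Th0 libraries. Ndufs1, Sdhd, Uqcrfs1, Cox7a2l and Atp5b fell by 0.35, 0.30, 0.30, 0.35 and 0.29 on the log2 scale, and Atp5a1 and Cox6a1, at -0.05 and 0.19, were not called.

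Over all genes, fewer were called lower without Th0 replicate 3 or Th17 replicate 3. Among the members, none of the 12 lower calls held under all 20 other settings. The count was 5 without Th0 replicate 3, 5 without Th17 replicate 3, 2 with scaling to library totals and 24 with the adjustment for gene length. The median of the members was -0.001 without Th17 replicate 3, the library that lay below its partner for 64 of 81 members. Among the lower calls, Ndufa9 and Cox7a2l each held under 19 of the 20 settings. The level of 10 genes found in all T cells moved in the same direction, with 8 lower in Th17 and none higher (median log2 fold change -0.51). Of the 8 B cell genes 7 were higher in Th17, and of the 11 myeloid and dendritic genes 8 were. The part of these in the values was not tested.

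Th17 and Treg conditions were compared directly. In Th17, 3 of the 81 tested members were higher (3.7%) and 16 lower (19.8%), against 14.8% higher and 14.5% lower over all genes, 29.2% in either direction. The median log2 fold change was -0.25 over the members and -0.03 over all genes. Lower in Th17 were 4 members of complex I, 1 of complex II, 3 of complex III, 3 of complex IV and 5 of complex V, and in complex V no member was higher. The summed level of complex V was 2336 and 2182 CPM in Th17 and 2818 and 2790 CPM in Treg libraries.

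The beta and alpha subunits of the ATP synthase were both lower in Th17. Atp5b had 707 and 734 CPM in Th17 and 1009 and 944.8 CPM in Treg (log2 fold change -0.44, SE 0.08, adjusted p 0.00305), and Atp5a1 had 503 and 471 CPM in Th17 and 631 and 612 CPM in Treg (log2 fold change -0.35, SE 0.08, adjusted p 0.0097). Atp5g3, the most abundant of the 3 c subunit genes per base of annotated exons, had 127 and 85.5 CPM in Th17 and 158 and 153 CPM in Treg (log2 fold change -0.55, adjusted p 0.0352). In all 3 genes the Th17 libraries were below the Treg libraries.

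In complex I, Ndufv1 had 39.4 and 31.96 CPM in Th17 and 56.7 and 58.3 CPM in Treg (log2 fold change -0.69, SE 0.13, adjusted p 0.00562), and Ndufa11 fell by 0.70 on the log2 scale (adjusted p 0.0141), while Ndufs1, at -0.20, was not called. Ndufa4 of complex IV had 32.3 and 24.4 CPM in Th17 and 59.7 and 55.5 CPM in Treg (log2 fold change -1.02, SE 0.18, adjusted p 0.00316). Sdhb, Cyc1, Uqcrfs1 and Cox6a1 fell by 0.35, 0.45, 0.29 and 0.44 on the log2 scale (adjusted p 0.0188, 0.0235, 0.0391 and 0.0351). These genes span all of the complexes other than complex V.

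The 3 members higher in Th17 than in Treg were Cox6a2, Cox6b2 and Atp5sl. The log2 fold change of Cox6a2 was 5.41 (SE 0.58, adjusted p 0.000245), or 42.4-fold, and those of Cox6b2 and Atp5sl were 1.35 (SE 0.31, adjusted p 0.0121) and 0.69 (SE 0.17, adjusted p 0.0175). All 3 were also lower in Treg than in Th0, a comparison that shares the Treg libraries. Cox7a2l, at 0.18, was not called.

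Over all genes, fewer were called lower in Th17 than in Treg without Treg replicate 2, Treg replicate 3 or Th17 replicate 3. The calls of the members between Th17 and Treg also depended on single libraries. The lower count was 3 without Treg replicate 2, 6 without Treg replicate 3 and 5 without Th17 replicate 3, and 21 without Th17 replicate 2. Under each of 20 other settings 4 calls held, those of Cox6a2, Ndufa4, Ndufv1 and Atp5b. The medians of the members under these 4 settings lay between -0.12 and -0.32. Beside this, the 2 genes of the CD8 co-receptor summed to 122 and 122 CPM in Th17 and 426 and 469 CPM in Treg libraries, and 7 of the 8 B cell genes were higher in Th17. Of the 10 genes found in all T cells 6 were lower in Th17 and none higher (median log2 fold change -0.38), and of the 11 myeloid and dendritic genes 3 were higher and 7 lower. The part of these in the values was not tested.

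**Figure D5:**
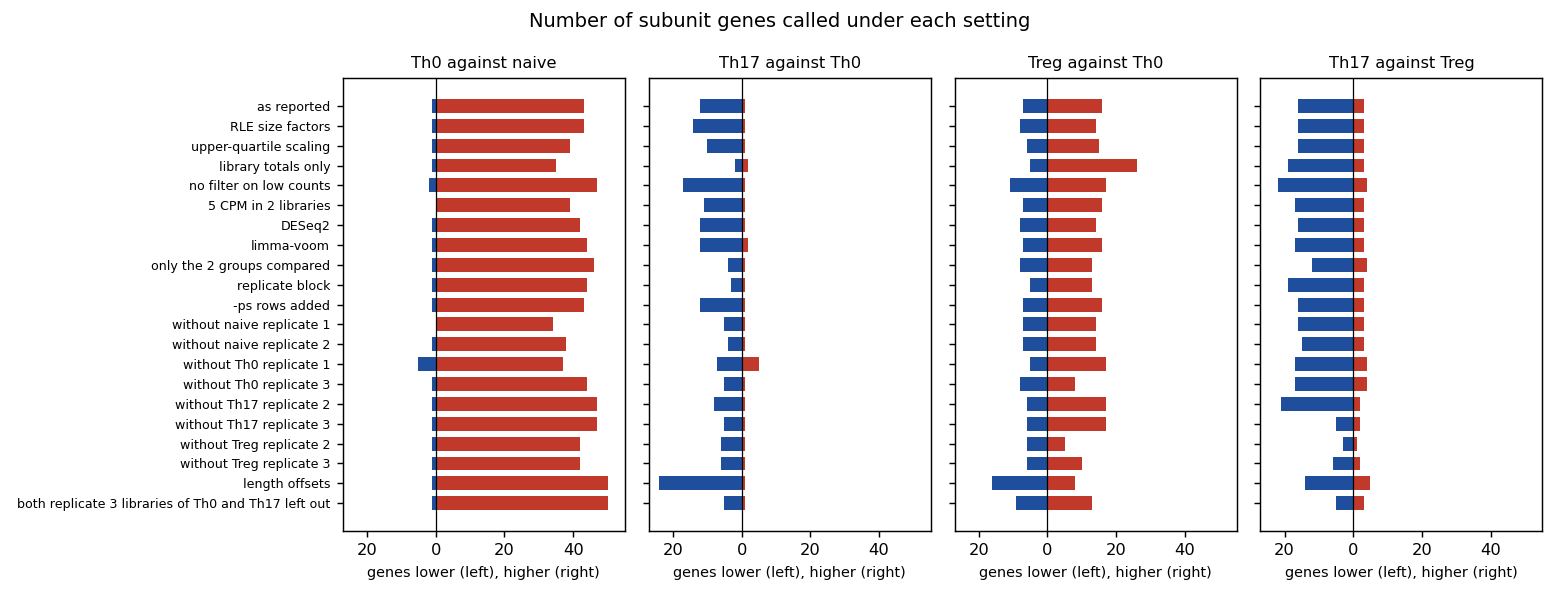
Number of member genes called higher (red, to the right) and lower (blue, to the left) in each comparison as reported and under 20 other settings, 1 per line. In Th0 against naive the higher count stays between 34 and 50, while in Treg against Th0 it runs between 5 and 26 and in Th17 against Th0 the lower count runs between 2 and 24.

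Other genes of the pathway were counted in the same tests. Of 46 tested assembly factors, which build the complexes without being part of them, 16 were higher (34.8%) and 7 lower (15.2%) in Th0 against naive, against 31.3% and 36.4% of all genes, with a median log2 fold change of 0.28. Among those at 10 CPM or more, the greatest changes were those of Ndufaf6 and Ndufaf5 for complex I and Sdhaf3 for complex II, which rose by log2 fold changes of 1.47, 1.21 and 1.26. In Treg against Th0 5 assembly factors were higher (10.9%) and 6 lower (13.0%), against 25.7% and 20.6% of all genes. In Th17 against Th0 1 was higher (2.17%) and 4 lower (8.7%), against 16.1% and 12.6% of all genes. Th17 against Treg gave 3 (6.52%) and 3 (6.52%), against 14.8% and 14.5% of all genes. These shares of all genes also apply to the lists below.

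Of 21 genes for coenzyme Q and cytochrome c, 6 were higher (28.6%) and 6 lower (28.6%) in Th0 against naive. Over all genes the shares were 31.3% and 36.4%. Etfdh, which feeds electrons of fatty acid oxidation to coenzyme Q, and Coq3, which works in coenzyme Q synthesis, rose by log2 fold changes of 1.08 and 1.21, and Dhodh, which feeds in electrons from pyrimidine synthesis, fell by 1.72. In Treg against Th0 6 of the 21 were higher (28.6%) and 3 lower (14.3%), with Dhodh higher by 1.63. In Th17 against Th0 3 were higher (14.3%) and 4 lower (19.0%). Th17 against Treg gave none higher and 4 lower (19.0%).

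Of 17 tested regulators of nuclear respiratory genes, 5 were higher (29.4%) and 6 lower (35.3%) in Th0 against naive, near the 31.3% and 36.4% of all genes. Gabpb1, the partner of the ETS factor GABP, and Tfb1m, a methyltransferase of mitochondrial ribosomal RNA, rose there by log2 fold changes of 1.45 and 1.48. Esrra and Polrmt, named after their values were seen, went the other way. Esrra had 20.3 and 17.7 CPM in Th0 and 42.3 and 43.5 CPM in naive libraries. Polrmt had 17.7 and 22.1 CPM in Th0 and 42.8 and 37.1 CPM in naive libraries. In Treg against Th0 3 were higher (17.6%) and 6 lower (35.3%), and Gabpb1 fell by 0.83 on the log2 scale. Th17 against Th0 gave none higher and 6 lower (35.3%), and Th17 against Treg gave 3 (17.6%) and 5 (29.4%).

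The 17 tested genes of the tricarboxylic acid cycle gave 9 higher (52.9%) and 3 lower (17.6%) in Th0 against naive (median log2 fold change 0.28). All genes gave 31.3% and 36.4% there. In Treg against Th0 4 were higher (23.5%) and 3 lower (17.6%). Th17 against Th0 gave 0 and 5 (29.4%), and Th17 against Treg gave 1 (5.88%) and 5 (29.4%). Cs (citrate synthase) and the isocitrate dehydrogenase subunits Idh3b and Idh3g rose in Th0 against naive by 1.07, 1.08 and 1.08. Idh3a, the catalytic subunit of that enzyme, went the other way, with 33.9 and 35.1 CPM in Th0 and 57.0 and 63.1 CPM in naive libraries. In Treg against Th0 Idh3a rose by 1.39, and Idh3g fell by 0.70 on the log2 scale.

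The 13 subunits encoded in mitochondrial DNA gave 1 higher (7.69%) and 9 lower (69.2%) in Th0 against naive, against 31.3% and 36.4% of all genes. Their median log2 fold change was -2.33, against 0.47 over the nuclear members. In that comparison mt-Nd3 and mt-Nd4l of complex I had log2 fold changes of -3.07 and -2.97, and the higher one, mt-Co1 of complex IV, rose by 0.86. In Th17 against Th0 6 were higher (46.2%) and none lower, and in Treg against Th0 8 (61.5%) and 2 (15.4%). Th17 against Treg gave 2 higher (15.4%) and 5 lower (38.5%). The summed level of the 13 was 32965 and 36993 CPM in Th17, 27734 and 28711 CPM in Treg, 39389 and 34264 CPM in Th0, and 40836 and 42246 CPM in naive libraries. Of these sums, mt-Co1 alone held 27062 and 24626 CPM in Th0 and 14046 and 14347 CPM in naive libraries. The sums therefore do not show the falls of the 9 genes called lower in Th0. The Th17 libraries also differed in mt-Atp6, at 495 CPM in replicate 2 and 3123 CPM in replicate 3.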

How the data were processed

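The deposited table held whole-number counts per gene and FPKM for 8 libraries. Bowtie2, RSEM, GRCm38.p6 and mm10 are named, per the submitters' processing notes, without roles; whether the counts are rounded RSEM estimates, and the strandedness, are not given in the sources used here. Each deposited FPKM could be rebuilt from its count, its library's total and 1 length per gene, for 100.0% of 134607 values (relative tolerance 0.001). That length exceeded the exons annotated in GENCODE M21 for 59 of 82 members, so genes were compared per base of those exons.

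Counts were tested with edgeR 4.0.16 (R 4.3.3): TMM scaling, filterByExpr by group, and quasi-likelihood tests in a group-means model of the 8 libraries, adjusted over 14690 genes. DESeq2 1.42.0 and limma 3.58.1 were alternatives. The tests were tested on simulated data. Members named in full were core subunits, isoform pairs and, per comparison and direction, the 3 called members of greatest change that reached 10 CPM with groups not overlapping; others are said to be picked after their values were seen, or are named with a role and a value. From other lists, up to 3 called genes per comparison at 10 CPM or more were named. Others were named after their values were seen: mt-Co1, as the single higher one, mt-Atp6, Esrra, Polrmt and Flt3. Members and lists were chosen with earlier results of these data known. Promoters came from RefSeq (GRCm38.p6).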

Additional observations from a re-analysis of the deposited data

Results flagged for a closer look

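Cox6a2 moved in opposite directions in the 2 differentiation cultures. Its level was 17.2 and 25.8 CPM in Th17, 0.26 and 0.77 CPM in Treg and 6.47 and 2.31 CPM in Th0 libraries, with both Th17 libraries above and both Treg libraries below both Th0 libraries. The difference itself, Th17 against Treg, was 5.41 on the log2 scale (edgeR quasi-likelihood test, adjusted p 0.000245), and it lay between 4.79 and 6.31 under 20 other settings, all of them past the threshold.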

How the results depend on the processing

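No called member changed its direction under any of the 20 settings. With 1 library left out, the number of genes called over the whole table changed as well. In Th0 against naive the 43 higher calls became 34 to 47 with 1 library left out, and the 1 lower call (Cox4i2) became 0 to 5 so, 2 without a low-count filter and 0 with a filter of 5 CPM in 2 libraries, which removed the gene from the test. In Th17 against Th0 the 1 higher call became 2 with library totals, 2 with limma-voom and 1 to 5 with 1 library left out. The 12 lower calls became 2 with library totals, 4 with only the 2 groups fitted and 4 to 8 with 1 library left out. In Treg against Th0 the 16 higher calls became 26 with library totals and 5 to 17 with 1 library left out, and the 7 lower calls became 11 with no filter and 5 to 8 with 1 library left out. In Th17 against Treg the 3 higher calls became 1 to 4 and the 16 lower calls 3 to 21 with 1 library left out. Another 2 settings were chosen after seeing the data. Offsets for gene length gave 24 lower in Th17 against Th0, 8 higher and 16 lower in Treg against Th0, and 5 higher in Th17 against Treg. Leaving out replicate 3 of both Th0 and Th17 gave 5 lower in Th17 against Th0 and 5 lower in Th17 against Treg. The cause was not tested for these.

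Same-numbered libraries had correlations of their deviations between -0.022 and 0.124. With 2 libraries per group the deviations mirror each other, and differently numbered libraries (naive replicate 1 and Treg replicate 3) also reached 0.124. The correlations therefore cannot decide whether the numbers pair the libraries. The main model left pairing out and gave 12 lower calls in Th17 against Th0, and the model with the replicate block gave 3.

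The values that changed sign were of members not called. In Th0 against naive Atp5a1 became -0.015 with upper-quartile scaling and -0.100 with library totals. With the same 2 scalings Atp5g1 became -0.026 and -0.111, and Cox5b -0.024 and -0.111; both became -0.002 with the 5 CPM filter. Atp5g1 was -0.022 without naive replicate 1, -0.069 to 0.162 over the libraries left out in turn (lowest without Th0 replicate 3) and -0.078 without replicate 3 of Th0 and Th17. Cox5b was -0.014 without naive replicate 1. With library totals Cox6a1 was -0.010, Cyc1 -0.011 and Ndufs1 -0.034. With 1 library left out in turn, Cox5b ran between -0.132 and 0.206, Cox6a1 between -0.049 and 0.322, Cox6a2 between -0.554 and 0.920 and Uqcrc1 between -0.226 and 0.108, each turning without Th0 replicate 1. In Th17 against Th0 Atp5a1 was 0.072 with library totals, 0.048 without replicate 3 of both groups and -0.105 to 0.012 with 1 library left out, turning without Th17 replicate 3. Cox6a1 ran between -0.002 and 0.368, turning without Th0 replicate 3, and Cox6b2 between -0.829 and 0.029, turning without Th17 replicate 3. In Treg against Th0 Cox6b1 was -0.065 to 0.318 with 1 library left out, lowest without Th0 replicate 3, -0.033 with length offsets and -0.024 without replicate 3 of Th0 and Th17. There Sdha was -0.017 to 0.075 with 1 library left out, lowest without Th0 replicate 1, and -0.076 with length offsets, Sdhb was -0.020 with length offsets, and Sdhc was -0.009 with RLE factors, -0.009 with DESeq2 and -0.127 with length offsets.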
